A study of Mus musculus with 9 samples.

Results

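Blood vessels run between the adipocytes of brown adipose tissue (BAT), the heat-producing fat of mammals, and 10 genes of their endothelium and its growth are described here: Vegfa, Kdr, Flt1, Tek, Angpt2, Apln, Aplnr, Pecam1, Cdh5 and Esm1. They were picked out by symbol with earlier results of these data known, so their counts against all genes are descriptions. All 10 were found by symbol among 16937 genes listed in at least 1 of 3 tables of RNA-seq values. BAT was taken from 9 mice on the C57Bl/6J background, 3 in each of 3 groups. WT RT were wild-type mice held at 23 °C, WT Cold were wild-type mice kept at 4 °C for 8 h, and GCN2 KO Cold were whole-body Gcn2-/- mice given the same cold exposure. All were adults that had been reared at 23 °C and housed singly for 5 days beforehand. The study used both sexes, and the labels give no sex for any library. The title of a sample in GCN2 KO Cold names both genotypes, and it was placed by its genotype label. The tables hold no GCN2 KO group at RT, so the interaction of genotype and temperature cannot be tested, and the whole-body deletion does not separate endothelium from other cells. The letters A, B and C name the libraries of each group and pair nothing between groups. The WT RT libraries carry another code prefix than the cold libraries, so a difference in preparation and the cold cannot be told apart.

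Vessel growth is driven by vascular endothelial growth factor A, the product of Vegfa, which in BAT is made largely by the adipocytes. It acts on endothelial cells through the receptor VEGFR2 (Kdr), while VEGFR1 (Flt1) binds the same ligand tightly and can act as a decoy. The angiopoietins hold vessels quiescent or loosen them through the receptor TIE2 (Tek), with angiopoietin-2 (Angpt2) as the context-dependent antagonist made by endothelium itself. Apelin (Apln) and its receptor (Aplnr) form a further ligand and receptor pair of growing vessels. PECAM-1 (Pecam1) and VE-cadherin (Cdh5) are adhesion proteins of the junctions between endothelial cells, and endocan (Esm1) is a secreted product of sprouting tip cells.

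The promoters of Vegfa, Kdr, Flt1 and Apln are shown because the first 3 genes rose from WT RT to WT Cold and Apln fell. Each sequence is the 250 bases before the RefSeq start site in GRCm38.p6, read 5′ to 3′ on the gene's own strand, which for all 4 is the minus strand. Capitals mark the core of the hypoxia response element (ACGTG or GCGTG), an estrogen-related receptor site (AAGGTCA) and the core of the cAMP response element (TGACG), searched on both strands.
Vegfa, chr17:46032378-46032627: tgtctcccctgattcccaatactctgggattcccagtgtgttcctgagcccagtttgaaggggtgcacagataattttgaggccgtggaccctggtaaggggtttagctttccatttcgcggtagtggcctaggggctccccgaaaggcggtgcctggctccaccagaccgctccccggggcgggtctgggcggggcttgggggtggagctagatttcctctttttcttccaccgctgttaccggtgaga
Kdr, chr5:75978456-75978705: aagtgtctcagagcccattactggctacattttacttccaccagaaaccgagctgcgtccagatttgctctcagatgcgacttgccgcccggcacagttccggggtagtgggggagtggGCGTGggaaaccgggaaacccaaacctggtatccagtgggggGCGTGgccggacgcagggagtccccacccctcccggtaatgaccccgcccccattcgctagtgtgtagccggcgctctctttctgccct
Flt1, chr5:147726012-147726261: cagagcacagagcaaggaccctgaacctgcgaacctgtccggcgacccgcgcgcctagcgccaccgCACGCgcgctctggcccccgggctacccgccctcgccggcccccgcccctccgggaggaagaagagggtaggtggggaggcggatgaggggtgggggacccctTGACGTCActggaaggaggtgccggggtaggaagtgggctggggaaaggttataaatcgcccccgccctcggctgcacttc
Apln, chrX:48034854-48035103: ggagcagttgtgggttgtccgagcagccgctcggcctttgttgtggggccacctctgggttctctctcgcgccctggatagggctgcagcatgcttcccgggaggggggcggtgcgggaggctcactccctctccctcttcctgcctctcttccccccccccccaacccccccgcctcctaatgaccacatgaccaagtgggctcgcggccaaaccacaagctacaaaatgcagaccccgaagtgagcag
The Kdr window held GCGTG at positions -131 and -89 from the start site. The Flt1 window held GCGTG on the opposite strand at -184 and TGACG at -81, with a match on the opposite strand at -78 that overlaps it. None of the 3 marked motifs occurred in the Vegfa or Apln window. The hypoxia core occurs in 38.6% of 32841 promoter windows of this length, the cAMP core in 17.8% and the estrogen-related receptor site in 4.08%, so the first is common by its letters alone. The windows of Flt1 (70.4% G and C), Apln (65.2%), Kdr (61.6%) and Vegfa (59.2%) all lay above the median of all windows, 52.4%. Promoter entries were also matched for Tek and Esm1, 6 of 10 genes in all, and the Esm1 window held GCGTG at -47. A SOX core (ACAAAG or ACAATG, on either strand), which 25.2% of windows hold, was found at -26 in Tek and at -215 in Apln. No binding was measured in this series.

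Levels are given as CPM, the reads on a gene scaled to the same total over all listed genes in every library. That total was 30457428 to 30768064 reads in WT RT, 28776085 to 28947157 in WT Cold and 27058799 to 28766121 in GCN2 KO Cold. Eif2ak4, which encodes GCN2, was read in every library, at 11.1, 12.6 and 13.03 CPM in WT RT, 6.46, 8.31 and 8.34 CPM in WT Cold, and 11.9, 12.7 and 11.8 CPM in GCN2 KO Cold. The last group was thus not lower than WT Cold at this gene (limma log2 fold change 0.78, adjusted p = 0.0932, and 0.0028 by DESeq2). Whole-gene counts cannot tell whether a deleted exon was read. The counts of the targeted gene thus neither bear out nor contradict the label, and this group is written as the labelled KO Cold libraries. The summed CPM of 7 brown adipocyte markers was 8530 to 10127 in WT RT, 13078 to 14088 in WT Cold and 15073 to 15529 in the labelled KO Cold libraries, so the labelled tissue was present in all 9.

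Endothelial markers were read in every library. The sum of 10 endothelial markers, 5 of them among the genes described here, was 768 to 853 CPM in WT RT, 925 to 1083 CPM in WT Cold and 757 to 896 CPM in the labelled KO Cold libraries. Every WT Cold library lay above every library of the other groups. In whole tissue, fewer cells of a type and less RNA per cell cannot be told apart.

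**Figure D1:**
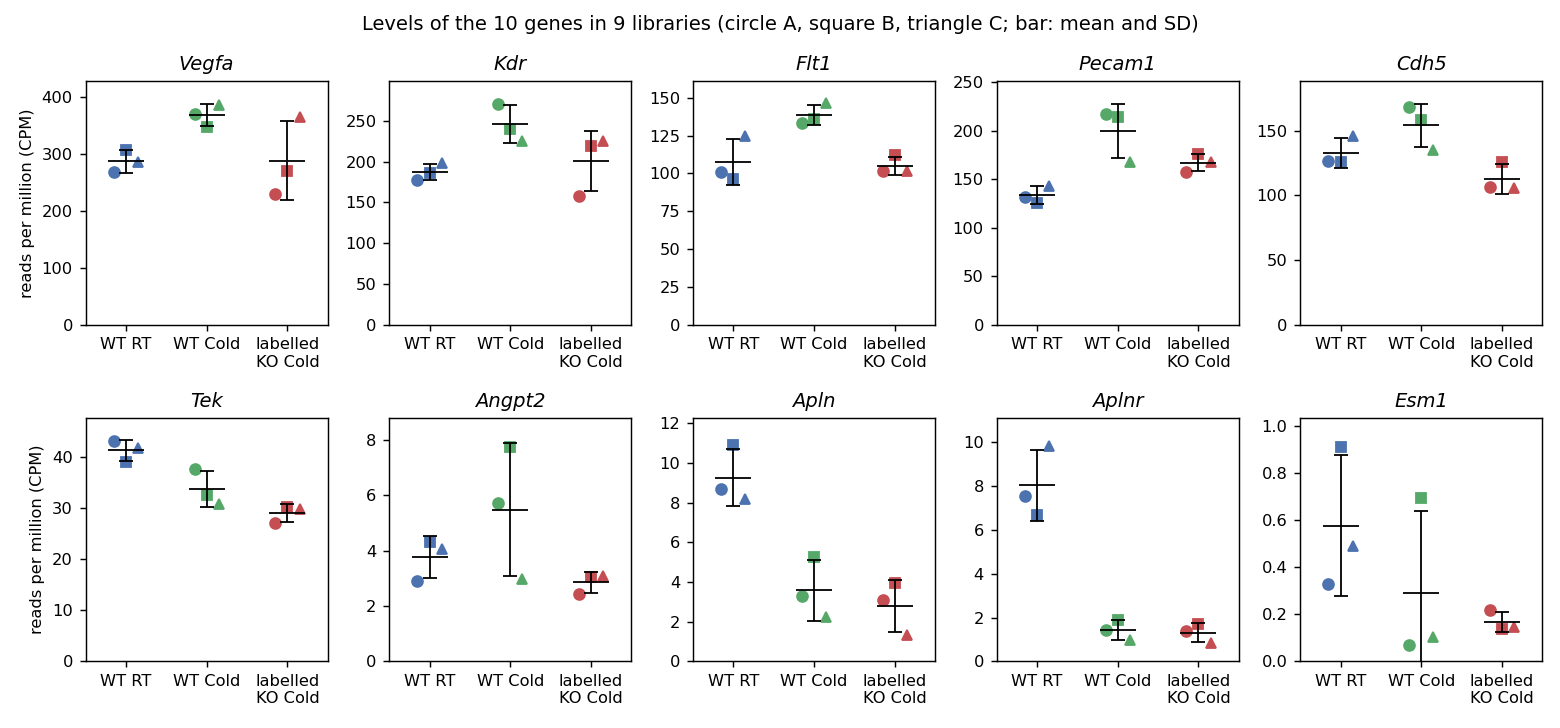
Level of each of the 10 genes in CPM by group, with a point for each library and a bar for the mean and SD of 3 libraries (the lower end of the Esm1 bar in WT Cold is cut off at 0). Apln and Aplnr sit lower in all 6 cold libraries than in WT RT, and Vegfa, Kdr, Flt1 and Pecam1 sit highest in WT Cold by their means.

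The 10 genes covered a wide range of levels, compared here as CPM per kilobase of exon (GENCODE M21 on GRCm38). In WT RT, Vegfa had the highest level at 67.0 ± 4.58 (SD, n = 3), followed by Cdh5 at 31.6 ± 2.73. Pecam1 (21.5 ± 1.46) and Kdr (20.7 ± 1.13) came next and overlapped, as did Tek (8.75 ± 0.43) and Flt1 (7.97 ± 1.13) below them. Apln (2.94 ± 0.46) and Aplnr (2.17 ± 0.44) overlapped as well. Angpt2 (1.02 ± 0.21) and Esm1 (0.275 ± 0.143) were the lowest. In WT Cold the order among the low genes was Angpt2 at 1.48 ± 0.65, Apln at 1.14 ± 0.49, Aplnr at 0.387 ± 0.122 and Esm1 at 0.138 ± 0.168 CPM per kilobase. Here Angpt2 overlapped Apln and Aplnr overlapped Esm1. Flt1 (10.3 ± 0.50) lay above Tek (7.14 ± 0.74) with no overlap, which had not been so in WT RT. In the labelled KO Cold libraries, Vegfa was again highest at 67.3 ± 16.1, Cdh5 and Pecam1 overlapped at 26.8 ± 2.72 and 26.8 ± 1.43, and Apln overlapped Angpt2.

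The first comparison asks what 8 h of cold did in wild-type mice. Vegfa, Kdr, Flt1 and Pecam1 rose by 1.36 to 1.58-fold, and Apln and Aplnr fell by far more. In all, the adjusted p was under 0.05 for 6 of the 10 (limma on log2 of the normalized count plus 1, adjusted over all 16679 genes of the table), against 27.7% of all genes. Of these, 4 were higher and 2 lower, against 13.6% and 14.1% of all genes. With the further demand of an absolute log2 fold change over 1, 2 of 10 passed, Apln and Aplnr, both lower, against 5.15% of all genes lower, 2.99% higher and 8.14% in either direction. Both thresholds together are meant where a gene is named as called below. The libraries of the groups did not overlap for 6 of 10 genes, against 45.5% of all genes. The median log2 fold change was 0.37 for the 10 genes and 0.0029 for all genes.

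The apelin pair were the 2 called genes. Apln (chrX:48025146-48034853 in GRCm38, minus strand) had 8.67, 10.9 and 8.21 CPM in WT RT and 3.28, 5.25 and 2.22 CPM in WT Cold. The highest cold library did not reach the lowest RT library. The normalized count was 2.55-fold lower in WT Cold, with a log2 fold change of -1.35 ± 0.29 (limma, SE, adjusted p = 0.0120). Aplnr (chr2:85136225-85139923, plus strand) had 7.55, 6.70 and 9.85 CPM in WT RT and 1.45, 1.88 and 0.973 CPM in WT Cold. Again the groups were far apart, by a log2 fold change of -2.41 ± 0.28 (limma, SE, adjusted p = 0.00114), or 5.30-fold lower. Ligand and receptor therefore fell together, the receptor to a lower share of its RT level than the ligand, and the difference between their changes was not tested.

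Among the VEGF genes, Vegfa (chr17:46016993-46032369, minus strand) had 268, 307 and 286 CPM in WT RT and 371, 347 and 386 CPM in WT Cold. All 3 cold libraries were higher, with a log2 fold change of 0.44 ± 0.08 (limma, SE, adjusted p = 0.00766). With all 3 groups in the fit it was 0.36, with an adjusted p of 0.0845. Its main signalling receptor Kdr (chr5:75932827-75978458, minus strand) had 178, 186 and 198 CPM in WT RT and 271, 241 and 226 CPM in WT Cold. These did not overlap either, and the log2 fold change was 0.47 ± 0.09 (limma, SE, adjusted p = 0.00755). Flt1 (chr5:147561604-147726011, minus strand) had 101, 96.6 and 125 CPM in WT RT and 134, 136 and 146.5 CPM in WT Cold. Its groups did not overlap, and the log2 fold change was 0.46 with a larger standard error of 0.13 (adjusted p = 0.0328, limma). The 3 estimates were close, with 95% intervals of 0.25 to 0.64 for Vegfa, 0.27 to 0.68 for Kdr and 0.16 to 0.76 for Flt1. Flt1 did not keep an adjusted p under 0.05 without WT Cold A, B or C or WT RT A or B, where it was 0.0522 to 0.103 with log2 fold changes of 0.37 to 0.50.

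Of the junction genes, Pecam1 (chr11:106654217-106750628, minus strand) had 132, 126 and 144 CPM in WT RT and 218, 214 and 168 CPM in WT Cold. WT Cold C was the lowest of the cold libraries and still above all RT libraries, and the log2 fold change of 0.66 ± 0.11 (limma, SE, adjusted p = 0.00525) was 0.60 to 0.76 with any library left out. Cdh5 (chr8:104101625-104144511, plus strand) had 127, 126 and 146 CPM in WT RT and 168, 159 and 135 CPM in WT Cold. Here WT Cold C lay below WT RT C, and the log2 fold change of 0.30 (standard error 0.11) had an adjusted p of 0.0790 (limma). Without WT Cold C the adjusted p was 0.0325 with a log2 fold change of 0.37, and without WT RT C it was 0.0320 with 0.40.

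Of the angiopoietin genes among the 10, neither Tek nor Angpt2 passed the test. Tek (chr4:94739289-94874976, plus strand) had 43.0, 39.0 and 41.7 CPM in WT RT and 37.5, 32.6 and 30.8 CPM in WT Cold. The groups did not overlap in CPM but did in normalized counts, with a log2 fold change of -0.21 ± 0.10 (limma, SE, adjusted p = 0.139). Angpt2 (chr8:18690263-18741562, minus strand) had 2.89, 4.32 and 4.07 CPM in WT RT and 5.70, 7.75 and 2.99 CPM in WT Cold. WT Cold C fell among the RT libraries, and the log2 fold change was 0.54 ± 0.34 (limma, SE, adjusted p = 0.275). Without WT Cold C it was 0.90, with an adjusted p of 0.0255, and without WT Cold B it was 0.24.

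Esm1 (chr13:113209659-113218098, plus strand) was near the limit of counting, with 10, 28 and 15 reads in WT RT and 2, 20 and 3 reads in WT Cold. WT Cold B, with 20 reads, lay within the RT range while A and C lay below it. The log2 fold change of -1.30 had a standard error of 0.78 and an adjusted p of 0.250 (limma), and without WT Cold B it was -2.17 with an adjusted p of 0.0442. WT Cold B also had the highest level of its group in Angpt2, Apln and Aplnr. The same library had 2279 CPM over 5 red blood cell markers against 671 and 572 CPM in WT Cold A and C.

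**Figure D2:**
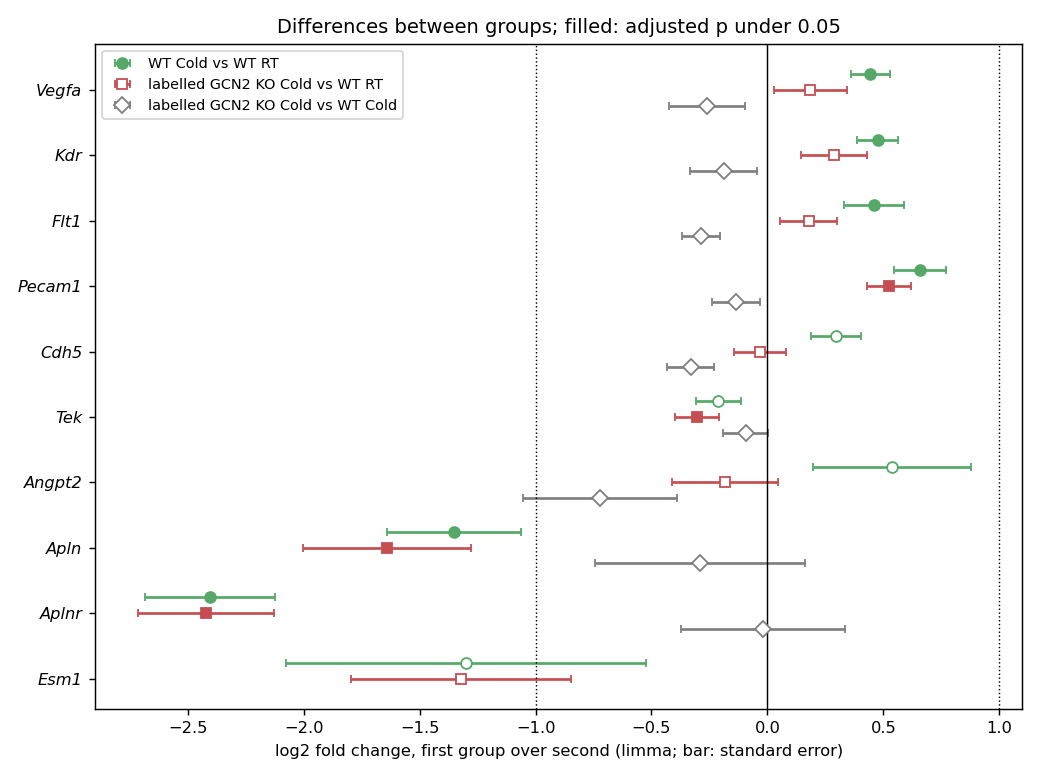
Log2 fold change of the normalized count for each gene in the 3 comparisons, with the limma standard error as bar and filled points for an adjusted p under 0.05. Apln and Aplnr lie below -1 in both comparisons of cold libraries with WT RT, and all 9 genes tested lie below 0 in the labelled KO Cold libraries against WT Cold.

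Since the summed CPM of the 10 endothelial markers, which was not tested, was highest in WT Cold, each gene was also set against Pecam1 and Cdh5, as a percentage of the CPM of these 2 genes together. Kdr was 70.4 ± 3.21% (SD, n = 3) in WT RT, 69.7 ± 4.96% in WT Cold and 71.6 ± 11.4% in the labelled KO Cold libraries. Flt1 was 40.3 ± 2.53%, 39.8 ± 7.36% and 37.6 ± 0.78%, and Vegfa was 108 ± 12.4%, 106 ± 18.9% and 103 ± 26.0%. The groups overlapped for all 3. Tek was 15.5 ± 1.12% in WT RT, 9.54 ± 0.72% in WT Cold and 10.4 ± 0.46% in the labelled KO Cold libraries, with no overlap between RT and either cold group. Apln was 3.51 ± 0.76%, 0.997 ± 0.361% and 0.989 ± 0.439%, and Aplnr was 2.996 ± 0.37%, 0.400 ± 0.094% and 0.465 ± 0.135%. Both were lower in every cold library than in every RT library by this measure as well. Angpt2 was 1.41 ± 0.30%, 1.51 ± 0.55% and 1.02 ± 0.10%, and Esm1, with few reads, was 0.220 ± 0.125%, 0.080 ± 0.093% and 0.061 ± 0.019%. The sum of Pecam1 and Cdh5 was itself 251 to 290 CPM in WT RT, 304 to 386 CPM in WT Cold and 264 to 302 CPM in the labelled KO Cold libraries. A percentage therefore reflects this sum as well as the gene. Tek alone did not pass the test in WT Cold against WT RT (log2 fold change -0.21, adjusted p = 0.139, limma). Since Vegfa is made largely by the adipocytes, its percentage is not a level within endothelium. These percentages are descriptions and were not tested.

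The second comparison asks what differed between the genotypes in the cold. None of the 9 genes was called in the labelled KO Cold libraries against WT Cold, where 0.257% of all genes were called (0.0613% higher and 0.196% lower), and none had an adjusted p under 0.05 by limma, DESeq2 or edgeR, where 0.405% of all 16312 genes had one by limma (0.178% higher and 0.227% lower). Esm1 is not listed in this table. At an unadjusted p under 0.05 there were 2 of the 9, Flt1 and Cdh5, or 22.2%, against 15.3% of all genes. All 9 estimates were negative, as were 50.5% of those of all genes, and their median log2 fold change was -0.26, where that of all genes was -0.0031. With each library scaled to its total instead, the median of all genes moved to -0.12. The 9 estimates moved down too, to between -0.84 (Angpt2) and -0.13 (Aplnr), from between -0.72 and -0.02. That of Vegfa moved from -0.26 to -0.38. The genes share libraries and are not independent.

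The 2 genes whose libraries did not overlap in this comparison, as for 22.0% of all genes, were Flt1 and Cdh5. Flt1 had 102, 112 and 102 CPM in the labelled KO Cold libraries, all below the 134, 136 and 146.5 CPM of WT Cold. Its log2 fold change was -0.28 ± 0.08 (limma, SE, adjusted p = 0.184). Cdh5 had 106, 126 and 106 CPM, and the lowest WT Cold library had 135 CPM. Its log2 fold change was -0.33 ± 0.10 (limma, SE, adjusted p = 0.193). The 95% intervals, which are not adjusted for the number of genes, ran from -0.48 to -0.09 for Flt1 and from -0.57 to -0.09 for Cdh5.

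In normalized counts the other genes overlapped between the groups. Vegfa had 230, 270 and 365 CPM in the labelled KO Cold libraries, of which C lay within the WT Cold range and A and B lay below it. The log2 fold change was -0.26 (95% interval -0.64 to 0.12, adjusted p = 0.510, limma). Kdr had 158, 219 and 226 CPM, all below the 3 WT Cold libraries in CPM, C only just (225.84 against 225.94). In normalized counts its groups overlapped, with a log2 fold change of -0.19 (95% interval -0.52 to 0.15, adjusted p = 0.594, limma). Pecam1 had 158, 176 and 167 CPM (log2 fold change -0.13, 95% interval -0.37 to 0.11, adjusted p = 0.594, limma). Tek had 27.1, 30.2 and 29.8 CPM, all below the 3 WT Cold libraries in CPM but not in normalized counts (log2 fold change -0.09, 95% interval -0.32 to 0.13, adjusted p = 0.704, limma). Neither gene passed the test. Angpt2 had 2.42, 3.06 and 3.07 CPM and the lowest estimate of the 9, a log2 fold change of -0.72 (95% interval -1.498 to 0.05, adjusted p = 0.359, limma). Single libraries moved these estimates, that of Angpt2 to -0.42 without WT Cold B and -1.09 without WT Cold C, that of Vegfa to -0.11 without KO Cold A and -0.45 without KO Cold C, and that of Kdr to -0.02 without KO Cold A and -0.29 without KO Cold C. Tek moved to between -0.14 and -0.03 and Pecam1 to between -0.24 and -0.08.

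The apelin genes were low in both cold groups. Apln had 3.11, 3.93 and 1.33 CPM in the labelled KO Cold libraries, of which C lay below the WT Cold range, and a log2 fold change of -0.29 (95% interval -1.35 to 0.77, adjusted p = 0.811, limma). Aplnr had 1.37, 1.70 and 0.850 CPM, with a log2 fold change of -0.02 (95% interval -0.85 to 0.81, adjusted p = 0.986, limma). The intervals are wide, and differences between the genotypes within them were not detectable with 3 libraries a group. The sign of both estimates turned when KO Cold C or WT Cold B was left out.

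The third comparison sets the labelled KO Cold libraries against WT RT and mixes genotype with temperature. It shares WT RT with the first comparison and the labelled KO Cold libraries with the second, so its values are not a separate observation of either. The adjusted p was under 0.05 for 4 of the 10, of which 1 was higher and 3 lower, against 34.2% of all 16560 genes, 16.4% higher and 17.8% lower. Of the 4, 2 were called, both lower, against 7.58% of all genes lower, 3.01% higher and 10.6% in either direction. The called genes were again Aplnr (log2 fold change -2.42, standard error 0.29, adjusted p = 0.000818, limma) and Apln (-1.64, standard error 0.36, adjusted p = 0.00931). They were 5.36-fold and 3.12-fold lower than in WT RT, and their libraries did not overlap, as for 5 of the 10 genes and 49.2% of all genes.

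Pecam1 rose here too, with a log2 fold change of 0.53 ± 0.09 (limma, SE, adjusted p = 0.00378). Tek fell, by 0.30 on the log2 scale (limma, SE 0.09, adjusted p = 0.0360), with all 3 libraries below the 39.0 CPM of the lowest RT library. Tek did not keep an adjusted p under 0.05 without KO Cold A, B or C or WT RT A or C, where it was 0.0531 to 0.117 with log2 fold changes of -0.34 to -0.25. With library totals its log2 fold change was -0.51 (adjusted p = 0.00281, limma), and with all 3 groups in the fit it was -0.49 (adjusted p = 0.00245, limma). For Vegfa (log2 fold change 0.19, adjusted p = 0.395), Kdr (0.29, adjusted p = 0.153), Flt1 (0.18, adjusted p = 0.305) and Cdh5 (-0.03, adjusted p = 0.838), the limma test was not passed. Kdr reached an adjusted p of 0.0111 without KO Cold A (log2 fold change 0.46), and Flt1 reached 0.0339 without WT RT C (0.32). Vegfa and Flt1 had log2 fold changes of -0.02 and -0.03 when each library was scaled to its total, which moved the median of all genes to -0.19, so no direction can be given for them. Angpt2 had a log2 fold change of -0.18 (adjusted p = 0.567, limma). Esm1 had 6, 4 and 4 reads against 10, 28 and 15 in WT RT, with a log2 fold change of -1.32 ± 0.47 (limma, SE, adjusted p = 0.0625). Without WT RT A its adjusted p was 0.0482.

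The genes with the closest pattern to the apelin pair over the 9 libraries were found by the root mean square difference of log2(CPM + 1), centred on each gene's mean, among 16006 genes listed in all tables. For Apln these were Ptges (0.18), Apol6 (0.20) and Gnptab (0.21), where Apln itself varied about its mean by 0.74. Ptges, which encodes a prostaglandin E synthase, had mean levels of 16.8, 7.56 and 6.68 CPM in WT RT, WT Cold and the labelled KO Cold libraries. For Aplnr they were Ccdc57 (0.19), Kbtbd11 (0.19) and Dixdc1 (0.20), where Aplnr varied by 0.94. Ccdc57 had 7.76, 1.27 and 1.09 CPM and Kbtbd11 had 48.1, 14.3 and 15.3 CPM. The genes were picked for this likeness, so the direction they share follows from the choice.

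Other genes of vessels were taken from lists of 98 genes, of which 96 were found and tested in each comparison, while Angpt4 and Ccl21a are not in the tables used here. In WT Cold against WT RT, 6 were called higher and 2 lower, 8.33% of the 96 against 8.14% of all genes. Their median log2 fold change was 0.20. At the adjusted p alone there were 28, of which 21 were higher and 7 lower (21.9% and 7.29% of the 96, against 13.6% and 14.1% of all genes). By direction, 6.25% were called higher and 2.08% lower, against 2.99% and 5.15% of all genes. With all 3 groups in the fit the split was 4 higher and 3 lower, where 1.72% of all genes were called higher and 3.64% lower.

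By role, the VEGF family list of 7 genes held 1 called gene, Pgf, the placental growth factor that binds VEGFR1. This was 14.3% of the 7, against 2.99% of all genes called higher. Nrp1 was lower at the adjusted p alone (-0.44), and 4 of the 7 estimates were negative. Pgf had a log2 fold change of 1.34 (adjusted p = 0.0216, limma). It had 2.89, 2.44 and 1.67 CPM in WT RT and 5.98, 8.27 and 3.37 CPM in WT Cold, with no overlap. Of the 3 tested partners of TIE2, Angpt1, its activating ligand, fell by 1.91 on the log2 scale (adjusted p = 0.000423, limma). Angpt1 was the 1 called gene of the 3, or 33.3%, against 5.15% of all genes called lower. It had 14.5, 10.9 and 11.0 CPM in WT RT and 2.76, 3.06 and 3.16 CPM in WT Cold. Ptprb, a phosphatase of TIE2, rose by 0.62 below the fold threshold. The Angpt1 libraries did not overlap between the groups.

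Of 26 genes of endothelial identity, 7 rose and 1 fell at the adjusted p alone (26.9% and 3.85%, against 13.6% and 14.1% of all genes), and 2 were called (7.69% against 8.14%). Sox17, a transcription factor of arterial endothelium, had 12.5, 10.5 and 13.5 CPM in WT RT and 23.5, 27.5 and 41.3 CPM in WT Cold (log2 fold change 1.39, adjusted p = 0.0043, limma). Gpihbp1, which carries lipoprotein lipase across capillary endothelium, had 85.6, 83.4 and 89.7 CPM in WT RT and 176, 178 and 175 CPM in WT Cold (log2 fold change 1.11, adjusted p = 0.000159, limma). Neither gene overlapped between the groups. The gene that fell was Nos3, the endothelial nitric oxide synthase, by 0.66 on the log2 scale.

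Among 10 tip cell and sprouting genes, Adm, which encodes adrenomedullin, was called higher (log2 fold change 1.29, adjusted p = 0.000996, limma), while Lama4, Nid2 and Mcam fell by 0.95, 0.86 and 0.73 on the log2 scale and Pdgfb rose by 0.94, none of them past the fold threshold. At the adjusted p alone 2 of these 10 were higher and 3 lower, against 13.6% and 14.1% of all genes. All 7 genes of the Notch pathway had positive estimates, as 50.2% of all genes did, and 3 rose at the adjusted p (42.9%, against 13.6% of all genes). Of these Hey2, a Notch target, was called (1.26, adjusted p = 0.0113, limma), which is 14.3% of the 7 against 2.99% of all genes called higher. None of 5 arterial, 7 venous or activated, or 5 lymphatic genes passed, with the largest estimates in Bmx (0.57) and Sema3g (0.17), Sele (-0.91) and Ephb4 (0.46), and Pdpn (-0.65) and Lyve1 (0.41). Of 7 angiogenesis inhibitors 2 rose at the adjusted p alone, Adamts1 (0.84) and Timp3 (0.63), or 28.6% against 13.6% of all genes, and none was called. Thbs2 had an estimate of 0.98 that did not pass, with 12.5, 14.1 and 10.3 CPM in WT RT and 16.0, 11.0 and 66.4 CPM in WT Cold, of which C alone was far above WT RT. Of 8 upstream regulators of Vegfa, Ppargc1a, which encodes the coactivator PGC-1α, was called higher (2.70, adjusted p = 0.00054, limma), and Esrra, the receptor it acts with, rose by 0.69. Hif1a rose by 0.34 and Vhl by 0.46, so that 4 of the 8 were higher at the adjusted p against 13.6% of all genes. The call of Ppargc1a was 12.5% of the 8, against 2.99% of all genes called higher. Of 11 mural cell genes, Cspg4, which encodes the pericyte proteoglycan NG2, was called lower at -1.0005, just past the fold threshold (9.09% of the 11, against 5.15% of all genes called lower).

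**Figure D3:**
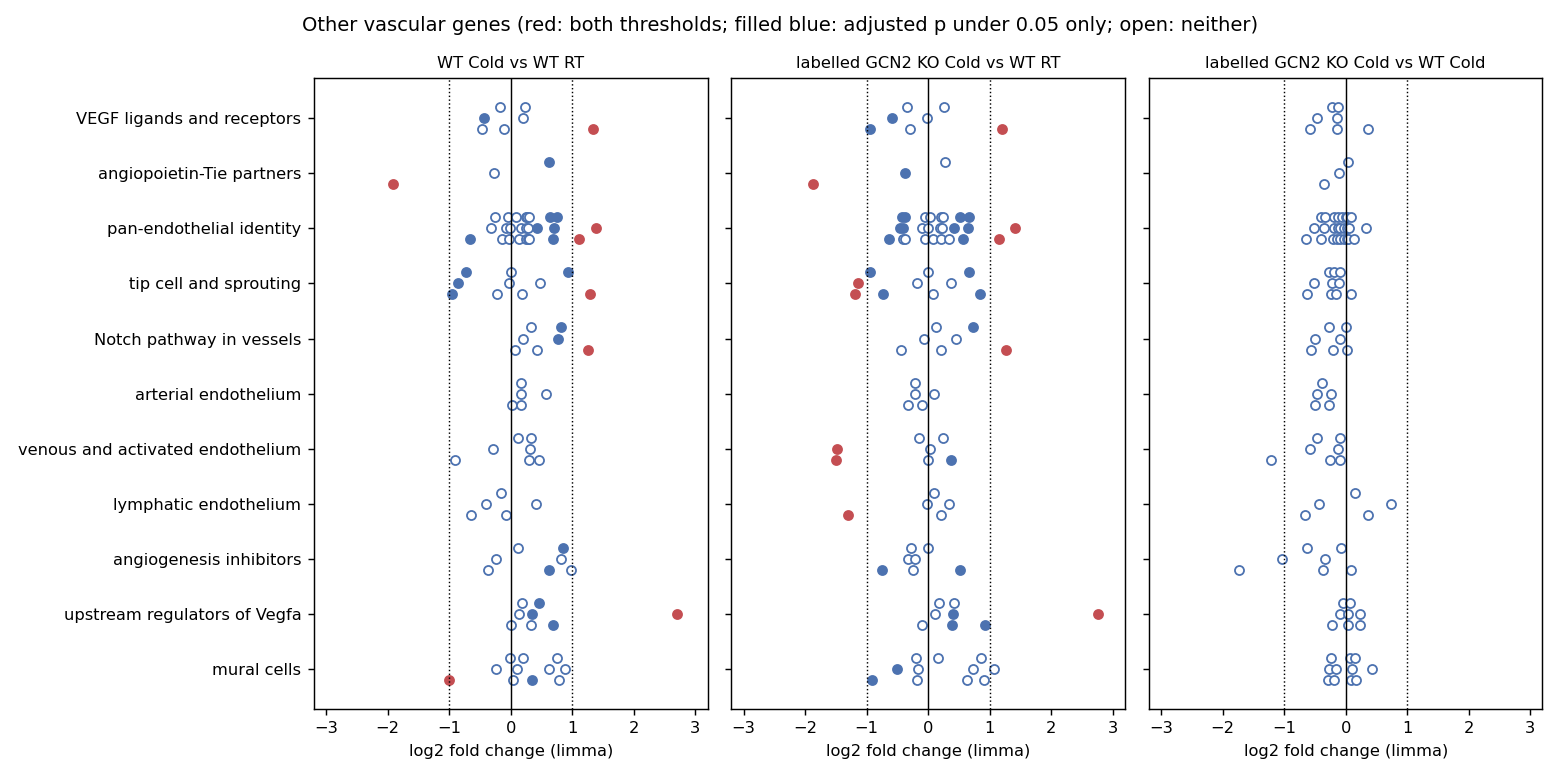
Log2 fold changes of the other vascular genes by list in the 3 comparisons, with a point for each gene, red where both thresholds were passed and blue otherwise. The lists hold genes called by limma in both directions against WT RT, and limma called none in the labelled KO Cold libraries against WT Cold.

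In the labelled KO Cold libraries against WT Cold, 0 of the 96 genes were called by limma, against 0.257% of all genes, or had an adjusted p under 0.05, against 0.405%. At an unadjusted p under 0.05 there were 20 (20.8%, against 15.3% of all genes). Of the estimates 67 were negative, 69.8% against 50.5% of all genes. The median log2 fold change was -0.14. By DESeq2, 1.12% of all genes were called lower in this comparison and 0.159% higher. Of the 96, DESeq2 called 1 gene, Thbs1, which encodes thrombospondin 1, with an adjusted p of 0.00565. For it limma gave a log2 fold change of -1.03 with an adjusted p of 0.177. It had 19.0, 19.0 and 39.6 CPM in WT Cold and 12.2, 10.1 and 10.6 CPM in the labelled KO Cold libraries. Thbs2 had the lowest estimate, -1.73 (standard error 0.60, adjusted p = 0.237, limma). It had 16.0, 11.0 and 66.4 CPM in WT Cold and 5.93, 6.95 and 5.99 CPM in the labelled KO Cold libraries. WT Cold C was the highest library for both thrombospondins. In the other lists the largest estimates were in Vegfd (-0.58) and Vegfc (-0.47), Ptprb (-0.35) and Tie1 (-0.11), Vwf (-0.65) and Plvap (-0.51), Adm (-0.63) and Cxcr4 (-0.51), and Notch4 (-0.57) and Notch1 (-0.50). The remaining lists were led by Gja5 (-0.50) and Bmx (-0.47), Selp (-1.21) and Sele (-0.58), Mmrn1 (0.74) and Pdpn (-0.66), Esrra (0.23) and Egln1 (0.23), and Higd1b (0.43) and Abcc9 (-0.29).

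Notch4, an endothelial Notch receptor, had the smallest adjusted p of those named, 0.0670 by limma and 0.00128 by DESeq2. It rose by 0.77 on the log2 scale from WT RT to WT Cold (adjusted p = 0.00252, limma). It had 23.5, 21.6 and 25.8 CPM in WT RT, 36.9, 40.5 and 36.9 CPM in WT Cold, and 21.8, 24.1 and 25.1 CPM in the labelled KO Cold libraries. All 3 WT Cold libraries were above all 6 others.

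Against WT RT, the labelled KO Cold libraries had 11 called vascular genes, 5 higher and 6 lower, 11.5% of the 96 against 10.6% of all genes. By direction these were 5.21% and 6.25%, against 3.01% and 7.58% of all genes. With each library scaled to its total the split was 3 higher and 9 lower, with all 3 groups in the fit 2 higher and 6 lower, and without WT RT A 8 higher and 5 lower. All genes gave 1.97% higher and 10.7% lower, 1.30% and 6.29%, and 2.85% and 6.12% under these alternatives. The median log2 fold change was 0.02. Higher were Ppargc1a (2.77), Sox17 (1.41), Hey2 (1.26), Pgf (1.20) and Gpihbp1 (1.15). Lower were Angpt1 (-1.87), the selectins Selp (-1.49) and Sele (-1.49), Pdpn (-1.31), which encodes podoplanin of lymphatic endothelium, and the basement membrane genes Lama4 (-1.19) and Nid2 (-1.13). The lists with none called were led by Gja5 (-0.33) and Gja4 (-0.22), Thbs2 (-0.75) and Adamts1 (0.52), and Cnn1 (1.07) and Cspg4 (-0.91).

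Markers of other cells moved between the groups as well. The summed CPM of 5 red blood cell markers was 260 to 345 in WT RT, 572 to 2279 in WT Cold and 1084 to 2081 in the labelled KO Cold libraries, and all 5 were called higher in both comparisons with WT RT, where 2.99% and 3.01% of all genes were called higher. The sum of 6 macrophage markers was 197 to 278, 112 to 197 and 82.7 to 120 CPM, with Cd68 (-1.96) and Adgre1 (-1.54) called lower in WT Cold against WT RT (33.3%, against 5.15% of all genes), and 4 of 6 called lower in the labelled KO Cold libraries against WT RT (66.7%, against 7.58%). The sum of 7 skeletal muscle markers was 1858 to 2233, 1728 to 2894 and 218 to 1005 CPM, with Myh7 (-3.34) and Tnnc1 (-3.05) called lower in the labelled KO Cold libraries against WT Cold (28.6%, against 0.196% of all genes), and 6 of 7 called lower against WT RT (85.7%, against 7.58%). In WT Cold against WT RT all 7 muscle markers had positive estimates. Tnnc1 was called higher there (1.03), 14.3% of the 7 against 2.99% of all genes. The muscle markers were lowest in the group in which all 9 estimates were below WT Cold. All 6 macrophage and all 6 fibroblast and preadipocyte markers also had negative estimates in that group against WT Cold. All 5 red blood cell and 6 of 7 brown adipocyte markers had positive ones. The sum of 6 fibroblast and preadipocyte markers was 950 to 1118, 742 to 831 and 475 to 624 CPM. The sum of 11 mural cell genes was 703 to 1229, 876 to 1216 and 818 to 1354 CPM and overlapped between all groups. None of these marker lists was at 0 in any library, and the part of these cells in the levels of the 10 genes was not tested.

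**Figure D4:**
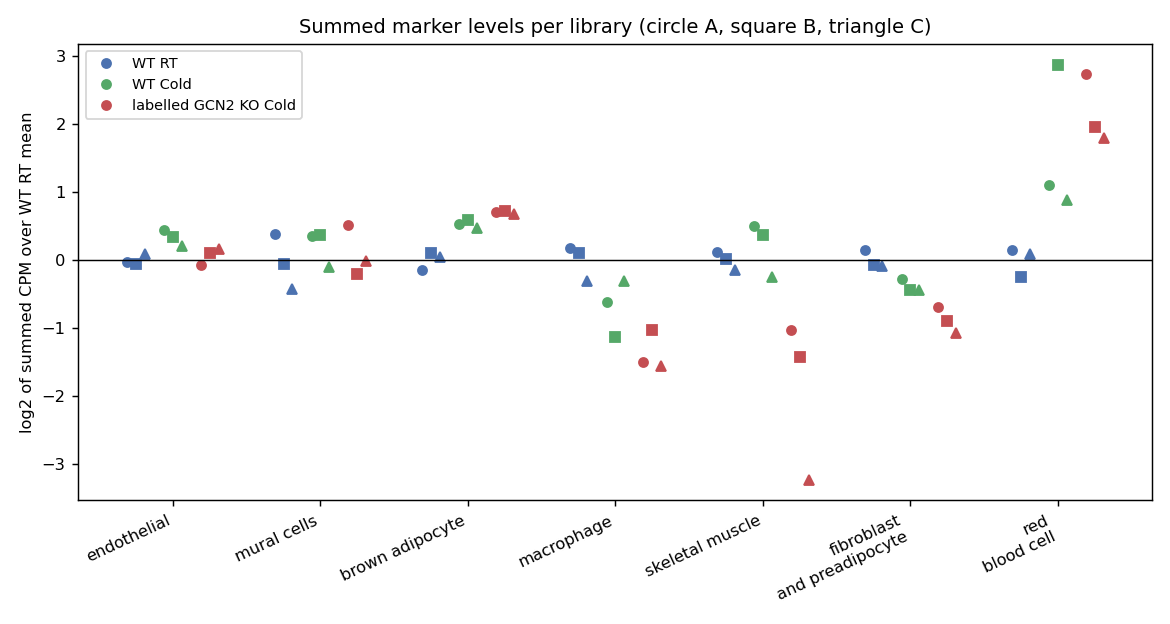
Summed CPM of 7 marker lists in every library as the log2 ratio to the WT RT mean, with a point for each library. Red blood cell markers lie above 0 in all 6 cold libraries, and skeletal muscle markers lie below -1 in all 3 labelled KO Cold libraries.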

How the data were processed

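Poly(A) RNA from BAT of 9 mice was sequenced. According to the study's methods and the submitters' processing notes, the authors trimmed reads with Trimmomatic 0.36, aligned them with STAR 2.5.2b, counted unique exon reads with featureCounts of Subread 1.5.2 and used DESeq2; the notes name GRCm39. Whether counting used strand is not given in the sources used here. Each of 3 deposited tables holds a signal per gene and library, a count divided by the authors' size factor for that table, and the authors' own fold changes and p-values, which were not used. No column came from other samples. Library codes were placed in groups by the tables in which they occur and were tied to no single mouse.

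Of 297306 values, 100% were whole reads within 0.001 reads after division by a library's step. No gene listed had fewer than 61 reads over the 6 libraries of its table. The libraries held 27058799 to 30768064 reads, and genes with few reads, such as Esm1, Sele and Selp, also carry counting error. With 3 libraries a group, limma p-values set the group difference against the spread between libraries, moderated by a mean-variance trend over all genes.

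Because the values are normalized, the test was limma 3.58.1 (R 4.3.3) with a mean-variance trend on log2(normalized count + 1), a pseudocount of 1, fitted to the 6 libraries of a table, two-sided, with Benjamini-Hochberg adjustment over all genes of the table. Calls needed both an adjusted p below 0.05 and a log2 fold change beyond 1 in either direction. Fold changes are on that log2 scale, and those of low genes depend on the pseudocount. Tables were normalized separately, so levels across groups are CPM of recovered reads. Alternatives were a pseudocount of 5, a mean of at least 50, scaling to library totals, DESeq2 1.42.0 and edgeR 4.0.16 quasi-likelihood tests on recovered reads, all groups in 1 fit on log2(CPM + 1), no fold threshold, and each library left out. The scripts were tested on simulated data. Positions and exon lengths are GENCODE M21 on GRCm38, since the tables hold no coordinates, and 16900 of 16937 genes matched by identifier.

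Named genes were all 10 genes, the called genes of each list or its 2 largest changes where none was called, Eif2ak4, and the 3 nearest in pattern to each called gene. Thbs1, Notch4, Nos3, Ptprb and other list genes that passed the adjusted p alone were named after their values were seen. The genes and lists were chosen with earlier results of these data known. A further marker list is not reported here.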

Additional observations from a re-analysis of the deposited data

How the results depend on the processing

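Of 343 values of the 10 genes under the alternatives, 328 kept their direction and whether they passed both thresholds together. The adjusted p threshold alone was crossed by 21 values, 17 of them among these 328. Without a fold threshold, the 10 genes gave 6 calls in WT Cold against WT RT and 4 in the labelled KO Cold libraries against WT RT. The other vascular genes gave 28 and 37. Of all genes, 27.7% and 34.2% passed at the adjusted p alone. With DESeq2, 1 other vascular gene was called, lower, in the labelled KO Cold libraries against WT Cold, where limma called 0. DESeq2 called 1.12% of all genes lower there, and limma 0.196%. With 1 library left out at a time, the calls among the 10 genes were 2 to 3 in both comparisons with WT RT. Those among other vascular genes were 7 to 8, 0 to 0 and 9 to 13 in the 3 comparisons. In the same fits 3.95% to 6.94%, 0% to 0.0736% and 5.79% to 7.79% of all genes were called lower. The shares called higher were 2.42% to 4.18%, 0.0184% to 0.0613% and 2.75% to 3.53%. Almost no gene of any kind was thus called in the second comparison, and the 0 calls there show little. The added call among the 10 genes was Esm1, at -2.17 without WT Cold B and at -1.65 without WT RT A. Esm1 was also called in the labelled KO Cold libraries against WT RT with library totals (-1.5025) and with edgeR (-1.58). The adjusted p of Vegfa in WT Cold against WT RT was 0.0845 with all 3 groups in the fit (log2 fold change 0.36), and that of Tek was 0.0401 (-0.29).

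The log2 fold change turned in the labelled KO Cold libraries against WT Cold for Apln (0.16 without KO Cold C, 0.03 without WT Cold B, -0.60 to 0.16 over all libraries left out) and Aplnr (0.25 and 0.20, -0.25 to 0.25 over all). Against WT RT it turned for Vegfa (-0.0175 with library totals and -0.0173 with all 3 groups in the fit), Flt1 (-0.0257 and -0.0255) and for Cdh5 (0.012 without KO Cold A, 0.0059 without KO Cold C, 0.069 without WT RT C, -0.12 to 0.069 over all). The cause was not tested. Apln, Aplnr and Pecam1 kept an adjusted p under 0.05 in 12 of 12 alternatives in both comparisons with WT RT. No paired analysis was possible because the table columns carry library codes and no replicate number or mouse.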
